A study of Mus musculus with 35 samples.

Results

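The genes described here are the NRF transcription factors *Nfe2l1* and *Nfe2l2*, their regulator *Keap1*, the oxidative stress genes *Hmox1*, *Nqo1*, *Gclm*, *Gclc* and *Txnrd1*, and the metallothioneins *Mt1* and *Mt2*. They were chosen by symbol, and all 10 were found among the 33292 genes measured by RNA sequencing of sorted mouse podocytes. Mice with 1 floxed *Lmx1b* allele carried on the other chromosome a wild-type allele (*Lmx1b*+/lox, called control mice below), the missense allele H77L (*Lmx1b* H77L/lox) or the missense allele C118F (*Lmx1b* C118F/lox). In all of them, including the controls, doxycycline at 2 mg/ml for 7 days switched on a Cre recombinase through a transactivator under a podocyte-specific promoter, which inactivates the floxed allele and turns podocytes from red to green by the mT/mG reporter. Podocytes are the epithelial cells that cover the glomerular capillaries, and the green ones were sorted on day 7. Bortezomib, a proteasome inhibitor, was injected every other day at 0.3 µg/g, and DMSO, its solvent, was given to the other mice, which were all 7 to 10 weeks old. Each of the 6 groups held 6 mice, except for the bortezomib-treated C118F mice with 5. The design thus asks whether these genes differ between the knock-in lines and the control, and whether they differ after proteasome inhibition.

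NRF1, the protein of *Nfe2l1*, sits in the membrane of the endoplasmic reticulum and is normally degraded by the proteasome, and when the proteasome is inhibited it is cut free, enters the nucleus and induces genes of proteasome subunits. NRF2, the protein of *Nfe2l2*, is held and marked for degradation by KEAP1, and oxidants or electrophiles release it to bind antioxidant response elements (ARE) together with small MAF proteins. Metallothioneins are small proteins rich in cysteine that bind zinc and copper, and they are induced by metals, through the factor MTF1 at metal response elements (MRE), by glucocorticoids and by stress.

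For orientation, the promoter sequences below are those of the metallothioneins and of *Nfe2l2* and *Txnrd1*, in which core letters of these elements occur, from the RefSeq windows of GRCm38.p6 that run from 250 bases before to 50 bases after a start site, written 5′ to 3′ in the direction of the gene. Capitals mark matches on either strand to TGACNNNGC, the ARE core, and to TGCACNC or TGCGCNC, the MRE core. The windows are chr8:94178839-94179138 on the plus strand for *Mt1*, chr8:94172368-94172667 on the plus strand for *Mt2*, chr2:75704614-75704913 on the minus strand for *Nfe2l2* and chr10:82858956-82859255 on the plus strand for *Txnrd1*.
Mt1: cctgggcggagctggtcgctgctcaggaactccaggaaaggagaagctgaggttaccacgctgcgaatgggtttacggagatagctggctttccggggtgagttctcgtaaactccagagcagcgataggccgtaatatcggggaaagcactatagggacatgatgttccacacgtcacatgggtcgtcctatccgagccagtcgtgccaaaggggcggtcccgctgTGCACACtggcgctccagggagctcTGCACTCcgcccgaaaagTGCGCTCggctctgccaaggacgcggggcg
Mt2: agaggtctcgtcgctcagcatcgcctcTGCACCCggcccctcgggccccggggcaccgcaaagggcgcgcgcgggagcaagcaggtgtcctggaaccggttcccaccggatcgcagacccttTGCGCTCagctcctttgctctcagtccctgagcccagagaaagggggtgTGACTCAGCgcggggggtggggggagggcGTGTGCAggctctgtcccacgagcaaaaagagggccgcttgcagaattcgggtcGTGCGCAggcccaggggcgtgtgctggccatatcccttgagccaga
Nfe2l2: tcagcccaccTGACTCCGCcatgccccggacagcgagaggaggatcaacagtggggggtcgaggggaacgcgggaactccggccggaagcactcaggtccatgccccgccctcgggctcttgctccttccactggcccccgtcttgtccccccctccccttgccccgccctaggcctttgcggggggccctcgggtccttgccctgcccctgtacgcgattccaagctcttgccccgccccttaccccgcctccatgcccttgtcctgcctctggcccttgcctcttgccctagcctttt
Txnrd1: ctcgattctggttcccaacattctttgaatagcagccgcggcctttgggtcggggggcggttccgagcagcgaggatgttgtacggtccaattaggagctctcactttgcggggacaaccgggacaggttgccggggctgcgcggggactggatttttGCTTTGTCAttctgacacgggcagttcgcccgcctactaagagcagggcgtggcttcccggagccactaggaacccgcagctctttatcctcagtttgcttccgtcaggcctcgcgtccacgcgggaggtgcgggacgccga
Of the 10 genes, 8 had at least 1 window, with 14 windows in all, and *Hmox1* and *Gclc* had none. The *Mt1* window held 3 MRE cores and no ARE core, and the *Mt2* window held 4 MRE cores and 1 ARE core, which also contains TGACTCA, the site of AP-1 factors. *Nfe2l2*, *Gclm* and 1 of the 3 *Txnrd1* windows held 1 ARE core each, *Gclm* held 3 MRE cores besides, and 1 of the 5 *Nfe2l1* windows held 2 MRE cores. The windows of *Nqo1* and *Keap1* held neither. Among all 32851 windows, 12.4% held an ARE core and 25.7% an MRE core, and 1.97% held at least 3 MRE cores. A match describes the letters and does not show binding.

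Values are given in TPM, reads per gene corrected for its length and scaled to the same total in each mouse, so that levels of different genes can be compared. Differences were tested with limma on log2(TPM + 1), a scale that understates the change of low genes, among genes that exceeded 1 TPM in all mice of 1 or both groups, and a gene was called higher or lower at an adjusted p under 0.05 (Benjamini-Hochberg, all genes tested). Adjusted p-values below are from limma unless another method is named, and they measure the spread between individual mice. Reads per mouse, recovered from the steps of the TPM values, ranged from 5259890 to 24115622 with a median of 19136247, and the lowest value was that of bortezomib-treated C118F replicate 2. *Lmx1b* itself had medians of 71.5, 120 and 104 TPM in DMSO-treated control, H77L and C118F mice. All 10 podocyte markers were detected in every group, but their sum fell from a median of 28055 TPM in DMSO-treated control mice to 9039 TPM in H77L and 7400 TPM in C118F mice, and 8 of 10 were called lower in each comparison of a knock-in genotype with the control. In bulk RNA, fewer cells of a type and less RNA per cell cannot be told apart. Summed markers of proximal tubule, distal tubule, endothelium and leukocytes stayed between 28 and 360 TPM in 31 mice and were above 500 TPM in 4, which were DMSO-treated control replicates 1 and 2 (602 and 2043 TPM), DMSO-treated H77L replicate 5 (799 TPM) and bortezomib-treated control replicate 2 (908 TPM). Results that rest on these mice are given below with and without them.

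In DMSO-treated control podocytes, *Nfe2l1* was by far the most abundant of the 10 genes, with a median of 653 TPM that ranked 206th among the 11689 genes with a median above 1 TPM. *Nfe2l2* had 82.6 TPM, *Txnrd1* 68.1 TPM, *Hmox1* 58.1 TPM and *Mt1* 57.6 TPM. *Gclc*, *Keap1*, *Gclm* and *Nqo1* lay close together, at 35.7, 33, 31.4 and 30.9 TPM, and their ranges over the 6 mice overlapped, as did those of *Txnrd1*, *Hmox1* and *Mt1* with each other. *Mt2* had only 4.41 TPM. Of the detected genes, 98.2% lay below *Nfe2l1* and 19.9% below *Mt2*.

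**Figure D1:**
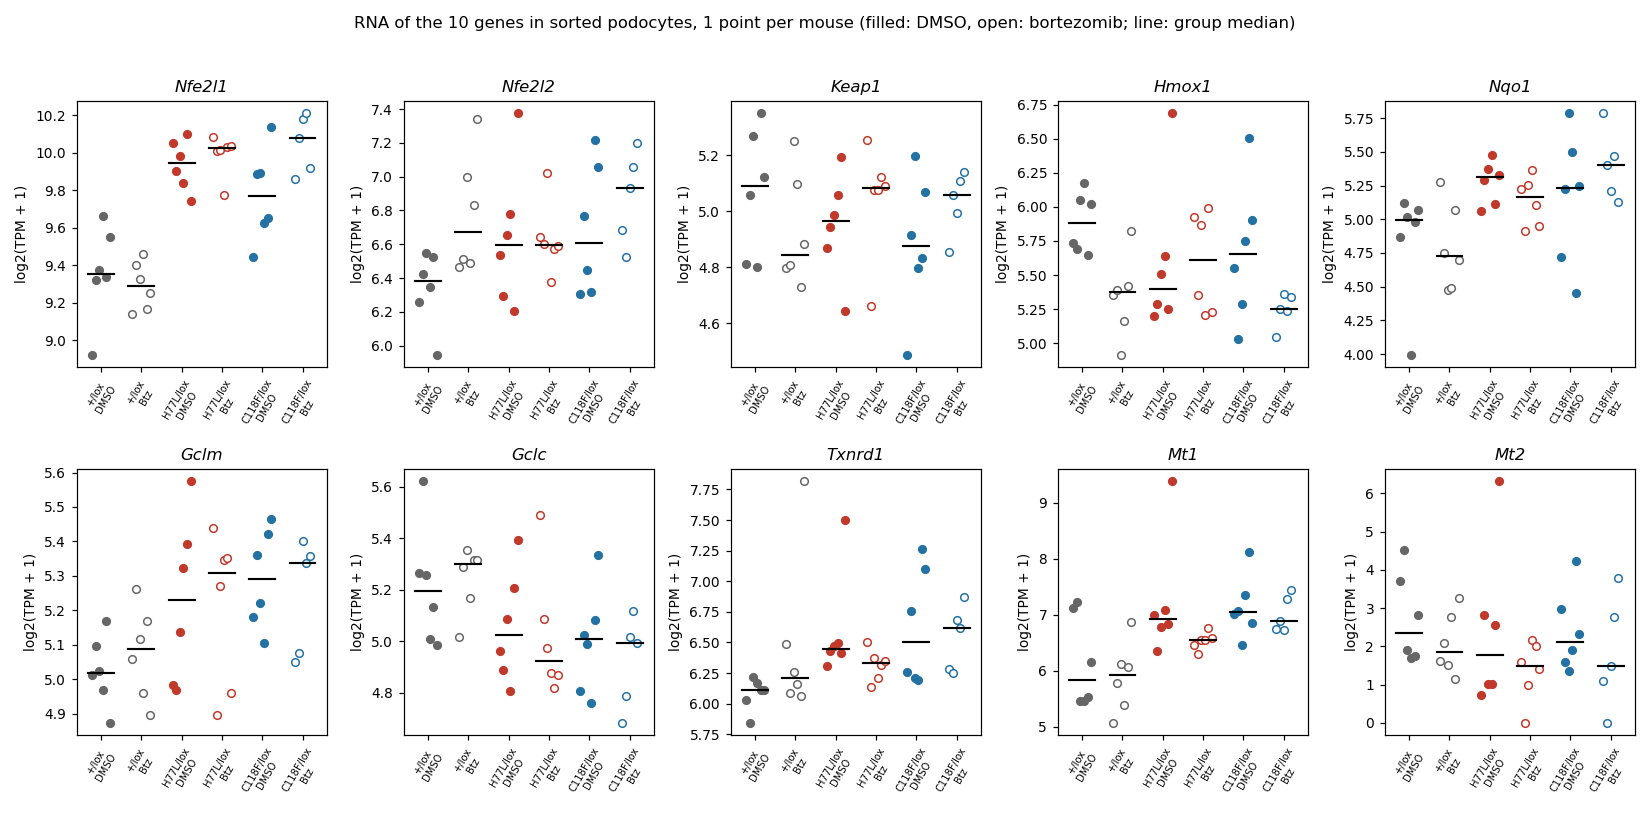
Level of each of the 10 genes in every mouse, as log2(TPM + 1) on the vertical axis, by genotype and treatment (filled points, DMSO; open points, bortezomib; each point is 1 mouse). The *Nfe2l1* points of both knock-in lines sit above most or all control points under both treatments, and a single DMSO-treated H77L mouse lies far above its group for *Hmox1*, *Txnrd1*, *Mt1* and *Mt2*.

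*Nfe2l1* (ENSMUSG00000038615, chr11:96705767-96720813 on the minus strand of GRCm39) was higher in both knock-in lines, and it was the only one of the 10 genes that was called in all 4 comparisons of a knock-in with the control. DMSO-treated control mice ranged from 483 to 809 TPM with a median of 653 TPM. H77L mice ranged from 855 to 1098 TPM with a median of 984 TPM, so that every H77L mouse was above every control mouse, and the fold change was 1.49 (log2 fold change 0.58, standard error 0.12, adjusted p = 0.00125). C118F mice ranged from 695 to 1127 TPM with a median of 875 TPM and overlapped with the control mice (fold change 1.33, log2 0.41, standard error 0.14, adjusted p = 0.0393). Without the mice high in markers of other cells, the H77L difference was called at a log2 fold change of 0.42 (adjusted p = 0.0097), whereas the C118F difference was 0.29 and no longer called (adjusted p = 0.166). After bortezomib, the separation was complete for both lines. Control mice ranged from 564 to 704 TPM with a median of 625 TPM, and H77L mice from 876 to 1086 TPM with a median of 1041 TPM (fold change 1.63, log2 0.70, standard error 0.08, adjusted p = 1.1e-05). The 5 C118F mice stood at 927, 1081, 1161, 1185 and 966 TPM, again all above the controls (fold change 1.69, log2 0.76, standard error 0.10, adjusted p = 8.2e-05). Both lines were compared with the same control mice, so their values are given side by side and were not combined. The summed podocyte markers fell and the summed parietal cell markers rose in the same groups (34.8 to 63.4 TPM in DMSO-treated control, 106 to 248 TPM in H77L and 75 to 175 TPM in C118F mice). Of the parietal list, *Cldn1* had medians of 24, 93.1 and 77.3 TPM, and *Pax8* and *Cd44* rose as well. *Cldn2* of that list went the other way, with medians of 2.81, 0.0589 and 0.4 TPM. The sum of the mesangium and smooth muscle list rose from 56.5 to 685 and 771 TPM through *Des* and *Pdgfrb*, while the mesangial genes *Itga8* and *Gata3* had medians of at most 0.363 TPM in every group. The other genes of that list, *Ren1* and *Myh11*, had medians of at most 7.1 and 1.05 TPM. However, DMSO-treated C118F replicate 1 stood apart with 2166 TPM of *Ren1*, the renin gene of juxtaglomerular cells, and without this mouse *Nfe2l1* in C118F mice was at 0.48 (adjusted p = 0.0183), *Txnrd1* at 0.62 (0.0188) and *Mt1* at 1.01 (0.0497). The part of these changes in the *Nfe2l1* difference was not tested.

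*Nfe2l2* (ENSMUSG00000015839, chr2:75504739-75534985 on the minus strand) did not pass the test in any comparison. Its median was 82.6 TPM in DMSO-treated control mice (range, 60.5 to 92.5 TPM), 95.9 TPM in H77L mice (72.7 to 165 TPM) and 97.3 TPM in C118F mice (78.2 to 148 TPM). The groups overlapped, and the log2 fold changes were 0.30 for H77L (95% confidence interval, -0.06 to 0.66, adjusted p = 0.164) and 0.35 for C118F (-0.01 to 0.70, adjusted p = 0.135). *Keap1* (ENSMUSG00000003308, chr9:21141026-21150679 on the minus strand), the adaptor that brings NRF2 to its ubiquitin ligase, had medians between 27.7 and 33 TPM in all 6 groups. Its differences from the control were -0.12 and -0.19 on the log2 scale in DMSO-treated H77L and C118F mice and 0.12 and 0.10 after bortezomib, none of them called. The 95% confidence intervals of these 4 *Keap1* differences together ran from -0.49 to 0.37.

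Other factors and regulators of the pathway gave a mixed picture. From a list of 20 such genes, which includes *Nfe2l1*, *Nfe2l2* and *Keap1*, 18 were tested, and 4 were higher and 2 lower in DMSO-treated H77L mice, where 22.4% of all genes were higher and 22.4% lower, and 3 and 2 in C118F mice, where 13.7% and 16.6% were. After bortezomib, 2 were higher in H77L and 3 in C118F mice, and none was lower (12.5% and 15.1% of all genes higher, 11% and 12.4% lower). *Maff*, a small MAF protein that pairs with NRF factors on DNA, rose from a mean of 6.11 TPM in control mice to 33.8 TPM in H77L mice (log2 fold change 2.26, standard error 0.30, adjusted p = 4.2e-05) and 43.4 TPM in C118F mice (2.48, 0.39 and 2.5e-04). After bortezomib the *Maff* differences were 0.64 and 1.24 and were not called (adjusted p = 0.537 and 0.225). The means there were 25.2 TPM in H77L and 39.1 TPM in C118F mice, and 45.6 TPM in control mice (standard deviation 90.9 TPM). That control mean includes a single mouse far above the others, which is described with the flagged results below. *Sqstm1*, which encodes the autophagy receptor p62 that binds KEAP1, rose from 1218 TPM to 1989 and 2003 TPM (log2 fold changes 0.70 and 0.68, adjusted p = 1.6e-04 and 0.00539), and it was also called after bortezomib, at 0.44 and 0.67 (adjusted p = 0.0206 and 0.00397). Among ubiquitin ligase components, *Btrc* fell by 0.41 and 0.51 and *Rbx1* by 0.48 and 0.41 on the log2 scale in DMSO-treated H77L and C118F mice (adjusted p = 0.00682, 0.0472, 1.7e-04 and 0.0155). After bortezomib neither gene was called in either line.

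**Figure D2:**
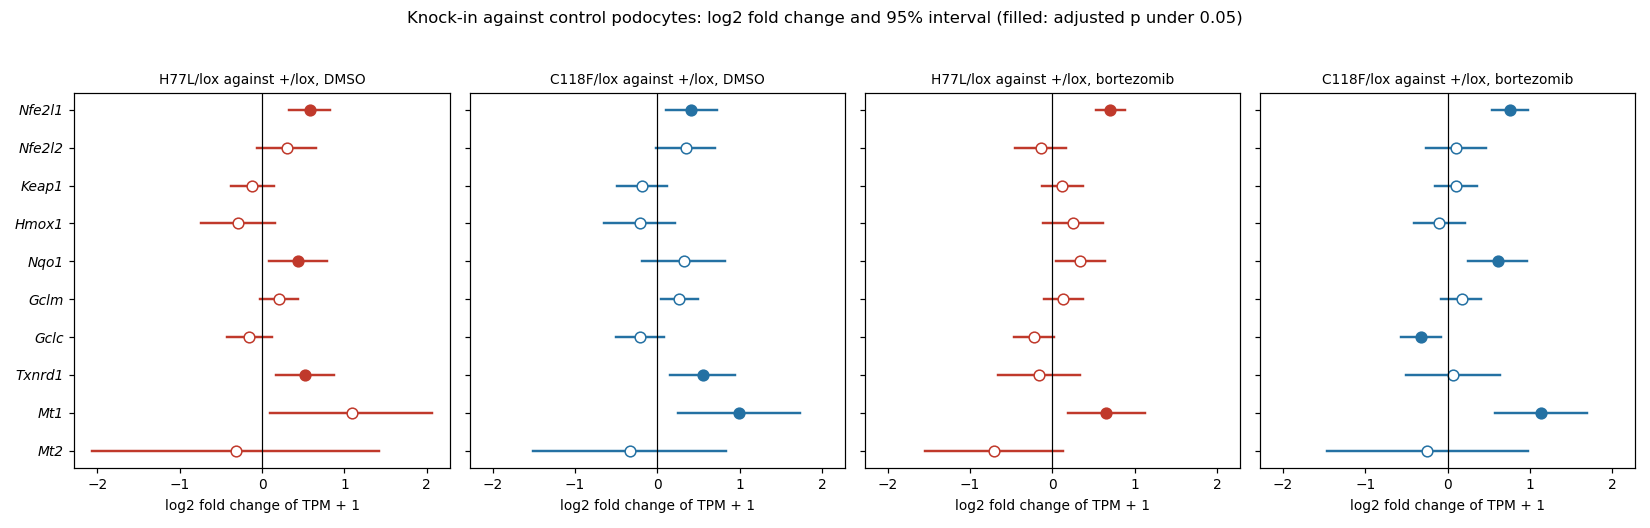
Log2 fold change of the 10 genes in each knock-in line against control mice, under DMSO and under bortezomib (points, limma estimate on log2(TPM + 1); bars, 95% confidence interval; filled points, adjusted p under 0.05). *Nfe2l1* lies to the right of 0 in all 4 comparisons, from 0.41 to 0.76, and the intervals of *Mt2* are the widest.

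Among the 10 genes, 3 were called higher in DMSO-treated H77L mice (*Nfe2l1*, *Nqo1* and *Txnrd1*) and none was called lower, where 22.4% of the 10964 genes tested were higher and 22.4% were lower. In DMSO-treated C118F mice, 3 of 10 were higher (*Nfe2l1*, *Txnrd1* and *Mt1*) and none lower, against 13.7% and 16.6% of 10899 genes. After bortezomib, 2 were higher in H77L mice (*Nfe2l1* and *Mt1*) and none lower, against 12.5% and 11% of 10805 genes. In bortezomib-treated C118F mice, 3 were higher (*Nfe2l1*, *Nqo1* and *Mt1*) and 1 lower (*Gclc*), against 15.1% and 12.4% of 10916 genes. With so many genes called throughout, these numbers do not set the 10 genes apart. Their median log2 fold changes were 0.25, 0.29, 0.13 and 0.10 in these 4 comparisons, with medians of all genes between -0.06 and 0.00. At the stricter limits of 0.001 for the adjusted p and 2 for the size of the log2 fold change, no member passed in any of the 4, where 2.17%, 2.27%, 1.2% and 1.93% of the genes did. The largest of the 10 effects, 1.13 for *Mt1*, was below the fold change required. At an unadjusted p under 0.05 there were 4, 4, 3 and 4 members, beside 52.1%, 41.1%, 34.8% and 38.5% of all genes. Without overlap between the groups, *Nfe2l1* and *Txnrd1* lay above the control in DMSO-treated H77L mice, as did 11% of the genes tested. *Nfe2l1* did so in bortezomib-treated H77L and C118F mice, where 6.8% and 9.01% of the genes did, and none of the 10 in DMSO-treated C118F mice (6.48%).

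*Txnrd1* (ENSMUSG00000020250, chr10:82669785-82733546 on the plus strand), the cytosolic thioredoxin reductase and a target of NRF2, was higher in both DMSO-treated lines. Control mice ranged from 56.4 to 73.5 TPM with a median of 68.1 TPM. H77L mice stood at 78.3, 85.3, 87.6, 89.1, 84.5 and 180 TPM, all above the control mice (fold change 1.44, log2 0.52, standard error 0.17, adjusted p = 0.0195). C118F mice spread more widely, from 72.1 to 153 TPM with a median of 91.5 TPM, and slightly overlapped with the controls (fold change 1.46, log2 0.55, standard error 0.18, adjusted p = 0.0339). Without the H77L mouse at 180 TPM the H77L difference was smaller but had a smaller error (log2 0.34, standard error 0.08, adjusted p = 0.00465). After bortezomib, no difference of *Txnrd1* was called. Control mice ranged from 66 to 225 TPM with a median of 73 TPM, and 1 mouse stood apart, since the other 5 did not exceed 88.7 TPM. H77L mice ranged from 69.5 to 89.8 TPM (log2 fold change -0.16, 95% confidence interval -0.66 to 0.33), and the C118F mice stood at 76.9, 75.1, 102, 97.1 and 116 TPM (0.06, -0.51 to 0.63). When the control mouse at 225 TPM was left out, the log2 fold changes were 0.11 in H77L mice (adjusted p = 0.452) and 0.33 in C118F mice (adjusted p = 0.0772). Without the mice high in markers of other cells, the DMSO differences of *Txnrd1* were 0.49 and 0.48 and neither was called (adjusted p = 0.0789 and 0.127). The labels number the mice, from 46302 to 47155 in DMSO-treated control, 46621 to 48975 in H77L and 46301 to 50093 in C118F mice, and the highest *Txnrd1* values of these lines, 180 and 153 TPM, and of bortezomib-treated control mice, 225 TPM, were those of mice 48975, 49335 and 48986. When this number was included in the fit, the DMSO differences of *Txnrd1* were 0.32 and 0.23 and neither was called (adjusted p = 0.272 and 0.189), those of *Nqo1* in H77L (0.44, adjusted p = 0.169) and *Nfe2l1* in C118F mice (0.36, adjusted p = 0.125) were not called, and in bortezomib-treated H77L mice *Txnrd1* and *Nfe2l2* were called lower (-0.52 and -0.36, adjusted p = 0.0362 and 0.0237). What the numbers stand for is not given, and their part in these values was not tested further.

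*Nqo1* (ENSMUSG00000003849, chr8:108113835-108129934 on the minus strand), a quinone reductase and a classical NRF2 target, was called in 2 of the 4 comparisons. DMSO-treated control mice had 28.2, 33.8, 31.3, 14.9, 30.5 and 32.5 TPM, and H77L mice 32.4, 38.2, 40.4, 43.5, 33.6 and 39.2 TPM (fold change 1.35, log2 0.44, standard error 0.17, adjusted p = 0.0463). The control mouse at 14.9 TPM was far below the rest, and without it the log2 fold change dropped from 0.44 to 0.27 (adjusted p = 0.0449). With only mice low in markers of other cells it was 0.55 and not called (adjusted p = 0.054). DMSO-treated C118F mice ranged from 20.9 to 54.2 TPM with a median of 36.7 TPM, which overlapped broadly with the controls (log2 0.32, adjusted p = 0.336). After bortezomib, control mice ranged from 21.2 to 37.7 TPM with a median of 25.5 TPM, and C118F mice had 54.2, 41.3, 36.1, 43.2 and 34 TPM (fold change 1.52, log2 0.61, standard error 0.17, adjusted p = 0.0137). Thus 3 of 5 C118F mice lay above all control mice. H77L mice were in between, from 29.1 to 40.2 TPM (log2 0.34, adjusted p = 0.0929).

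*Hmox1* (ENSMUSG00000005413, chr8:75820241-75827217 on the plus strand), the stress-inducible heme oxygenase, was not called in any knock-in comparison, but 1 mouse decided the H77L value under DMSO. Control mice ranged from 49.1 to 71.2 TPM with a median of 58.1 TPM, and H77L mice had 35.7, 38, 44.6, 48.8, 37 and 102 TPM. Hence 5 of 6 H77L mice lay below every control mouse and 1 lay above every control mouse. With all mice the log2 fold change was -0.29 (standard error 0.21, adjusted p = 0.284), and without the mouse at 102 TPM it was -0.51 (standard error 0.12, adjusted p = 0.00431). C118F mice ranged from 31.7 to 89.9 TPM with a median of 49.5 TPM (log2 -0.21, adjusted p = 0.464). After bortezomib, medians were 40.5 TPM in control, 48.6 TPM in H77L and 37 TPM in C118F mice, and the ranges overlapped.

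*Gclm* and *Gclc* encode the modifier and the catalytic subunit of glutamate-cysteine ligase, the rate-limiting enzyme of glutathione synthesis, and their differences from the control had opposite signs in all 4 knock-in comparisons. *Gclm* (ENSMUSG00000028124, chr3:122039126-122065061 on the plus strand) had a median of 31.4 TPM in DMSO-treated control mice (28.3 to 35 TPM), 36.6 TPM in H77L mice (30.3 to 46.7 TPM) and 38.2 TPM in C118F mice (33.4 to 43.2 TPM). It did not pass the test in any comparison, with the lowest adjusted p in DMSO-treated C118F mice (log2 0.27, standard error 0.10, adjusted p = 0.0636). *Gclc* (ENSMUSG00000032350, chr9:77661797-77701770 on the plus strand) had a median of 35.7 TPM in DMSO-treated control mice (30.7 to 48.3 TPM), 31.6 TPM in H77L mice (27 to 41.1 TPM) and 31.2 TPM in C118F mice (26.1 to 39.4 TPM). After bortezomib, *Gclc* had a median of 38.4 TPM in control mice (31.4 to 39.9 TPM) and stood at 24.7, 26.6, 31.4, 33.7 and 30.9 TPM in C118F mice, which was its only called difference (fold change 0.799, log2 -0.32, standard error 0.11, adjusted p = 0.0476). Without the control mouse high in markers of other cells the adjusted p was 0.0825. The call lay at the threshold and was lost in 9 of 11 fits that each left out 1 mouse, where the adjusted p ranged from 0.03 to 0.106. The other 5 calls with an adjusted p between 0.0339 and 0.0463, which are *Nqo1* in DMSO-treated H77L mice, *Nfe2l1*, *Txnrd1* and *Mt1* in DMSO-treated C118F mice and *Mt1* in bortezomib-treated H77L mice, were lost in 6 to 9 of 12 such fits.

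Other genes of the antioxidant system also rose and fell within each function. Of 29 glutathione genes, 21 were tested in DMSO-treated mice, and 4 were higher and 1 lower in either line, near the shares of all genes in H77L (22.4% higher, 22.4% lower) and C118F mice (13.7% and 16.6%), which also apply to the DMSO counts of the other lists. The rises included *Gpx3*, a secreted glutathione peroxidase (mean of 3765 TPM in control, 9520 TPM in H77L and 8401 TPM in C118F mice, adjusted p = 5.5e-04 and 0.00382), and *Ggt5*, a gamma-glutamyl transferase (89, 204 and 189 TPM, adjusted p = 1.2e-05 and 1.2e-04). The glutathione transferase *Gsta4* fell from 741 to 472 and 466 TPM (adjusted p = 0.00993 and 0.00472). Among 23 thioredoxin and peroxiredoxin genes, 2 were higher in each DMSO-treated line, whereas 7 were lower in H77L and 2 in C118F mice. *Srxn1*, sulfiredoxin, which restores oxidised peroxiredoxins and is a target of NRF2, rose from 56.3 to 110 and 101 TPM (log2 0.96 and 0.84, adjusted p = 1.7e-04 and 6.1e-04). *Prdx3*, the mitochondrial peroxiredoxin, fell from 670 to 343 and 338 TPM (log2 -0.98 and -0.99, adjusted p = 1.3e-05 and 9.6e-06). The *Srxn1* and *Prdx3* differences were called in the same direction in both lines after bortezomib, whereas *Gsta4* was at 0.25 and 0.07 and not called (adjusted p = 0.42 and 0.888).

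In the list of NADPH supply and of quinone or carbonyl reduction, more genes passed the test in DMSO-treated H77L than in C118F mice, as among all genes. Of 20 tested between the 2 lines under DMSO, 0 were called. Of 19 tested in DMSO-treated H77L mice, 7 were higher and 3 lower (22.4% and 22.4% of all genes), with a median log2 fold change of 0.20, and of 20 tested in C118F mice, 5 were higher and none lower (13.7% and 16.6% of all genes), with a median of 0.19. *Akr1b8*, an aldo-keto reductase, rose from 20 to 53.2 and 51.8 TPM (adjusted p = 7.0e-04 and 6.0e-05), and *Osgin1*, a stress-induced growth inhibitor, from 1.48 to 5.59 and 4.55 TPM (adjusted p = 4.7e-05 and 0.00322). The heme and iron list, in which 16 genes were tested, had 3 higher and 3 lower in H77L mice and 2 of each in C118F mice, with a rise of the ferritin light chain *Ftl1* from 3174 to 5598 and 6608 TPM (adjusted p = 3.9e-04 and 2.1e-04) and a fall of the biliverdin reductase *Blvrb* from 40.9 to 24.2 and 28.6 TPM (adjusted p = 2.8e-04 and 0.0172). Of 10 genes against superoxide and peroxide, 2 were higher and 3 lower in H77L mice, and 2 higher and 2 lower in C118F mice. The extracellular superoxide dismutase *Sod3* rose from 185 to 328 and 290 TPM (adjusted p = 1.5e-04 and 0.0235), while catalase (*Cat*) fell from 259 to 200 and 204 TPM (adjusted p = 0.00317 and 0.0143). Of 32 subunit genes of the constitutive proteasome, 3 were higher and 12 lower in H77L mice, and 1 was higher and 4 lower in C118F mice. After bortezomib, 1 was higher and none lower in H77L mice, and 1 was higher and 3 lower in C118F mice, with medians of -0.01 and -0.10. Of all genes, 12.5% were higher and 11% lower in these H77L mice, and 15.1% and 12.4% in these C118F mice. *Psmd12* rose by a log2 fold change between 0.32 and 0.42 in all 4 comparisons.

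*Mt1* (ENSMUSG00000031765, chr8:94905710-94906955 on the plus strand) had fold changes between 1.57 and 2.19 in the 4 knock-in comparisons, and also a wide spread. DMSO-treated control mice had 139, 149, 42.8, 42.8, 45.1 and 70.1 TPM, and the 2 high mice were those with 602 and 2043 TPM of markers of other cells. H77L mice had 127, 81.1, 109, 135, 113 and 672 TPM, which gave a fold change of 2.12 that was not called (log2 1.09, standard error 0.46, adjusted p = 0.0694). C118F mice had 129, 133, 86.8, 162, 279 and 114 TPM (fold change 1.98, log2 0.99, standard error 0.35, adjusted p = 0.0428). Every knock-in mouse was therefore above the 4 low control mice, and both lines overlapped with the 2 high ones. When only mice under 500 TPM of markers of other cells were compared, *Mt1* was called in both lines, with log2 fold changes of 1.68 for H77L (standard error 0.48, adjusted p = 0.0185) and 1.50 for C118F (standard error 0.27, adjusted p = 0.00157). This left out the 2 high control mice but kept the H77L mouse at 672 TPM. Without the H77L mouse at 672 TPM, and with all control mice, the H77L value was 0.65 (adjusted p = 0.116). After bortezomib, control mice ranged from 32.5 to 116 TPM with a median of 59.9 TPM, and H77L mice from 77.6 to 108 TPM with a median of 92.9 TPM (fold change 1.57, log2 0.65, standard error 0.22, adjusted p = 0.0419). C118F mice had 106, 117, 105, 155 and 173 TPM, with 1 control mouse at 116 TPM among them (fold change 2.19, log2 1.13, standard error 0.26, adjusted p = 0.00474). Without the control mouse high in markers of other cells, the bortezomib differences of *Mt1* were 0.63 in H77L mice, no longer called (adjusted p = 0.0722), and 1.11 in C118F mice (adjusted p = 0.0109). When the mouse number was included in the fit, neither bortezomib difference of *Mt1* was called (0.36 and 0.55, adjusted p = 0.186 and 0.187). Its DMSO differences in that fit were 0.43 in H77L mice (standard error 0.57, adjusted p = 0.61) and 0.82 in C118F mice (adjusted p = 0.158), neither of them called.

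*Mt2* (ENSMUSG00000031762, chr8:94898819-94900207 on the plus strand) lies 5502 bases before *Mt1* on the same strand and was far lower. *Mt1* exceeded *Mt2* in all 35 mice, and in the 33 mice with *Mt2* above 0 the ratio of their TPM had a median of 26.4 (range, 6.72 to 190). *Mt2* rested on a median of 8 reads per mouse, so that small differences were not detectable. In 2 bortezomib-treated mice no read was counted, which allows up to 0.973 TPM in H77L replicate 2 and 3.48 TPM in C118F replicate 2 (3 reads, counting error only). Medians were 4.41, 2.94 and 3.39 TPM in DMSO-treated control, H77L and C118F mice, and 2.66, 1.83 and 1.78 TPM after bortezomib. The highest *Mt2* values in control mice, 12.1 and 22.1 TPM, were those of the same 2 mice that were high in *Mt1*. No difference of *Mt2* from the control was called, with log2 fold changes between -0.71 and -0.25. Without the DMSO-treated H77L mouse at 79.3 TPM, the H77L value moved from -0.32 to -1.11 and was not called (adjusted p = 0.119).

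Metallothionein genes respond to zinc, and of 22 genes of metallothioneins and zinc handling, 19 were tested against the control. In DMSO-treated mice, 6 were higher and 2 lower in H77L (22.4% and 22.4% of all genes) and 5 higher and 2 lower in C118F mice (13.7% and 16.6%). After bortezomib, 3 were higher in H77L mice and 6 in C118F mice, and none was lower (12.5% and 15.1% of all genes higher, 11% and 12.4% lower). The zinc importer *Slc39a10* rose from 13.8 to 30.2 and 28.2 TPM under DMSO (adjusted p = 5.6e-04 and 0.00643), and the vesicular zinc transporter *Slc30a2* rose from 10.7 to 19.2 and 26.4 TPM (adjusted p = 0.0241 and 0.00243). The gene of MTF1, the factor that induces metallothioneins, fell from 14.7 to 10.5 and 9.92 TPM (*Mtf1*, log2 -0.44 and -0.55, adjusted p = 0.002 and 0.0159). Of 12 glucocorticoid-induced genes, 4 were higher and 1 lower in DMSO-treated H77L mice, and 3 were higher and 3 lower in C118F mice. They included *Sgk1*, a kinase gene, which rose from 24.7 to 294 and 285 TPM (adjusted p = 8.8e-05 and 8.5e-06). Of 16 immediate early and heat shock genes, which respond to tissue handling as well, 5 were higher and 1 lower in H77L mice and 4 and 1 in C118F mice. The part of handling in these values was not tested.

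None of the 10 genes was called between bortezomib and DMSO within a genotype. By limma, 0 of 10 were called in control mice, 0 of 9 in H77L mice, where *Mt2* was too low to be tested, and 0 of 10 in C118F mice. In all genes, 0% were called in control mice, 1.16% in H77L mice and 0% in C118F mice, so that few genes passed here in general. A count of reads analysed with limma voom also called none of the members in these comparisons. At an unadjusted p under 0.05 from limma on TPM there were 2 in control mice (*Hmox1* and *Nfe2l2*) and 0 in either line. The shares of all genes at that limit were 8.66% in control, 20% in H77L and 5.86% in C118F mice. *Nfe2l1* differed from its DMSO level by -0.07 in control mice (95% confidence interval, -0.31 to 0.18), 0.06 in H77L mice (-0.11 to 0.23) and 0.28 in C118F mice (-0.02 to 0.57) on the log2 scale. In control mice, *Hmox1* had a median of 58.1 TPM under DMSO and 40.5 TPM under bortezomib (log2 -0.54, standard error 0.14, unadjusted p = 0.00172, adjusted p = 0.56 from limma), and 5 of 6 bortezomib-treated mice, at 29.1 to 41.9 TPM, lay below all DMSO-treated mice. *Nfe2l2* had medians of 82.6 and 102 TPM (log2 0.43, standard error 0.15, adjusted p = 0.56). *Txnrd1* had a difference of 0.40 in control mice, which rested on the mouse at 225 TPM and was 0.13 without it (adjusted p = 0.608 and 0.87).

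**Figure D3:**
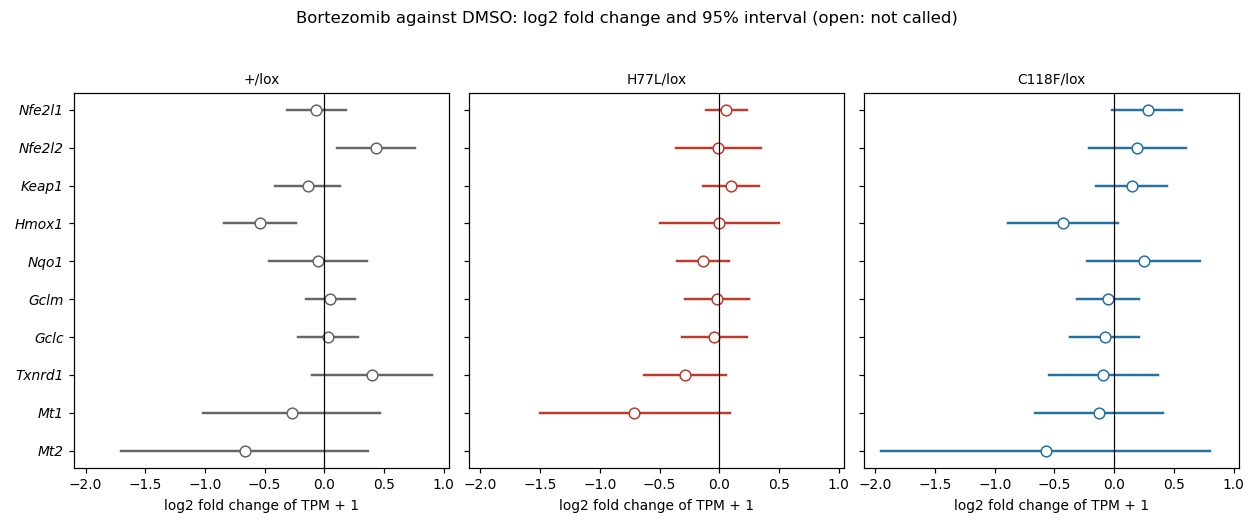
Log2 fold change of the 10 genes under bortezomib against DMSO in each genotype (points, limma estimate on log2(TPM + 1); bars, 95% confidence interval; open points, not called). No point is filled, and *Hmox1* in control mice, at -0.54, is farthest from 0 in terms of its error.

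The response to bortezomib was also compared between the genotypes by an interaction term, and none of the 10 genes was called. The shares of all genes called were 0% for H77L against control, 0% for C118F against control and 0% for H77L against C118F. The voom fit called no member either. At an unadjusted p under 0.05 from limma on TPM there was 1 member in the first of these (*Txnrd1*, -0.69, standard error 0.31, adjusted p = 0.236) and 0 in the other comparisons. The shares of all genes at that limit were 18.2%, 5% and 7.6%. This *Txnrd1* value includes both mice that stood apart, at 180 TPM in DMSO-treated H77L and at 225 TPM in bortezomib-treated control mice.

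No difference between the knock-in lines was called in any of the 10 genes. Under DMSO, 0 of 10 members and 0% of all genes were called, and no member had an unadjusted p under 0.05, beside 3.85% of all genes. Under bortezomib, 0 of 9 members and 0.972% of all genes were called, and voom called none of them under either treatment. The *Mt1* values came nearest, with 77.6 to 108 TPM in H77L and 105 to 173 TPM in C118F mice under bortezomib (log2 0.48, standard error 0.13, 95% confidence interval 0.19 to 0.76, adjusted p = 0.113). *Hmox1* was lower in C118F than in H77L mice by 0.35 on the log2 scale (95% confidence interval of the difference, -0.68 to -0.02, adjusted p = 0.32). For *Nfe2l1* the intervals were -0.42 to 0.10 under DMSO and -0.14 to 0.25 under bortezomib.

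Since mice of 1 group differed widely in several of these genes, it was asked which of them varied together from mouse to mouse. Deviations of log2(TPM + 1) from the group means were correlated over all 35 mice for the 45 pairs of genes, with a permutation test within the groups (100000 resamples) and adjustment over the 45 pairs. For 5 pairs both Pearson's r and Spearman's rho had an adjusted p under 0.05, and all 5 were positive. *Nfe2l2* and *Txnrd1* had an r of 0.77 and a rho of 0.66 (adjusted p = 0.00135 and 0.00765, permutation test), and r was 0.68 without the 2 mice farthest from the median of *Nfe2l2*. In each pair, the 2 mice left out were chosen by the gene named earlier in the opening list, so mice extreme in the other gene could remain. The mouse number, described above for *Txnrd1*, was not removed, and its part in these correlations was not tested. *Mt1* and *Mt2* had an r of 0.75 and a rho of 0.60 (adjusted p = 0.00135 and 0.0139), and 0.58 without 2 mice. *Hmox1* and *Txnrd1* had 0.66 and 0.55 (adjusted p = 0.0075 and 0.0177), and 0.50 without 2 mice. *Gclc* varied with its partner subunit *Gclm* (r 0.55, rho 0.55, adjusted p = 0.0174 and 0.02) and with *Nfe2l2* (r 0.51, rho 0.54, adjusted p = 0.0174 and 0.02), and these held at 0.56 and 0.45 without 2 mice. In all, 15 pairs passed by r alone, but *Hmox1* and *Mt1* dropped from 0.54 to 0.18, *Txnrd1* and *Mt1* from 0.52 to 0.18, and *Hmox1* and *Mt2* from 0.51 to 0.17 when 2 mice were left out, so that these relations rest on those mice. *Nfe2l1* had an r of -0.01 with *Nfe2l2*, and its r with *Mt1* was -0.42 (adjusted p = 0.0594).

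**Figure D4:**
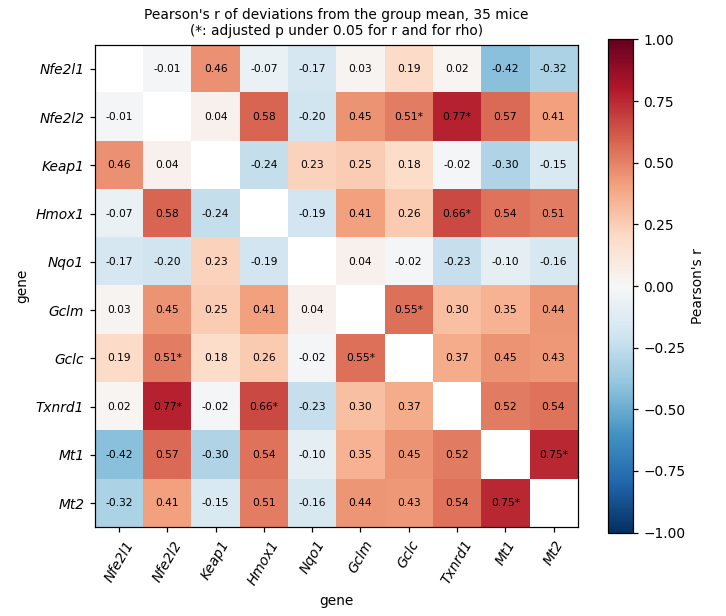
Pearson's r of each pair of the 10 genes, from deviations of log2(TPM + 1) from the group means over 35 mice (colour scale from -1 to 1). *Nfe2l2* with *Txnrd1* (0.77) and *Mt1* with *Mt2* (0.75) are the strongest, and *Nfe2l1* is near 0 with *Nfe2l2*.

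**Figure D5:**
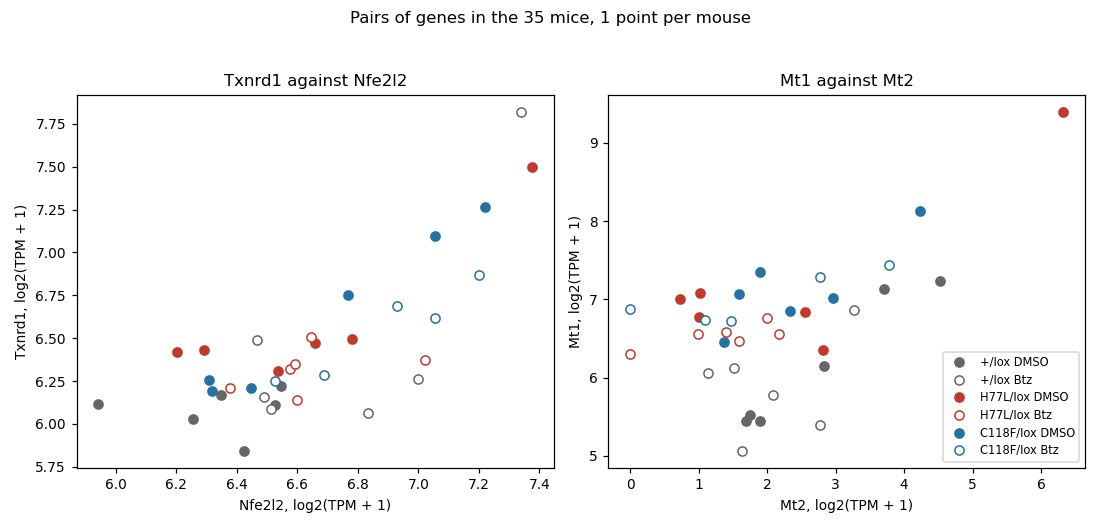
Level in each mouse, as log2(TPM + 1) with group differences included, for *Txnrd1* against *Nfe2l2* and *Mt1* against *Mt2* (each point is 1 of 35 mice; filled, DMSO; open, bortezomib). Both pairs rise together, with single mice at the upper end. Pearson's r of these levels is 0.77 for *Nfe2l2* with *Txnrd1* and 0.55 for *Mt1* with *Mt2*.

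As a description over all 35 mice and 11306 genes, with group differences included and no test, genes with a pattern similar to that of *Nfe2l1* included *Mylk* and *Arhgef17* (Pearson's r 0.91 and 0.91). Those most similar to *Nfe2l2* were *Smad1*, *Atf4* and *Sp3* (0.85, 0.84 and 0.84), those for *Txnrd1* were *Ripk1*, *Brd2* and *Cyth2* (0.89, 0.88 and 0.87), and those for *Mt1* were *Fosl1*, *Rdh10* and *Sgk1* (0.85, 0.85 and 0.83). *Hmox1* had no gene above 0.63 (*Ipmk*), and the highest for *Keap1*, *Nqo1*, *Gclm*, *Gclc* and *Mt2* lay between 0.70 and 0.77 (*Tgfa*, *Obsl1*, *Galnt2*, *Cracdl* and *Rnf122*). The differences between the groups enter these values, and nothing on shared function follows from them.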

How the data were processed

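RNA of green podocytes was sequenced from 35 mice in 6 groups, with poly(A) RNA amplified by a SMART-Seq kit and read from 1 end. Per the submitters' processing notes and the study's methods, the authors trimmed adapters with Trim Galore 0.6.7, aligned reads to GRCm39 with STAR, which placed a read with several matches at 1 of them at random, assessed duplicates with Picard and counted reads per gene with featureCounts 1.6.3. The authors deposited TPM. The step from counts to TPM is not described in the sources used here. Multi-mapping and duplicate reads can affect genes with near-identical copies, and PCR reads are not independent molecules, so intervals and floors from reads cover counting error only.

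TPM rise in steps of 1 read, and whole reads (tolerance 0.001) were recovered for 23925 of 23943 expressed genes (99.9%), and they made up 99.97% or more of the TPM in any mouse. These reads served for the depth and for an alternative test. Gene names and positions came from GENCODE vM39 (32776 of 33292 identifiers matched, 516 did not). Promoter windows were RefSeq's for GRCm38.p6.

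Genes that exceeded 1 TPM in all mice of 1 or more compared groups were fitted on log2(TPM + 1) with limma 3.58.1 (lmFit and eBayes with intensity trend) in R 4.3.3, on the mice of the groups compared, with Benjamini-Hochberg adjustment over all genes tested and a threshold of 0.05. Groups were taken from the genotype and treatment labels, and the label of the control genotype was read as *Lmx1b*+/lox from the description of the design. The sex of the mice is not in the labels. The other steps used Python 3.11.15 with scipy 1.17.1, matplotlib 3.10.9, pandas 2.3.3 and numpy 2.4.6.

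The members and gene lists were chosen with earlier results of these data known. Of 260 listed genes, 259 were matched by symbol. All 10 members are named. From each pathway list, up to 3 genes with the largest positive and 3 with the largest negative mean log2 fold change were eligible among those called in the same direction in both DMSO comparisons of a knock-in genotype with the control, and not all eligible genes are reported. For each member the 3 genes with the highest Pearson's r over 35 mice were determined, and 1 of them is not reported here. *Des*, *Pdgfrb*, *Itga8*, *Gata3*, *Ren1*, *Myh11*, *Cldn1*, *Pax8*, *Cd44* and *Cldn2* are from the marker lists, and *Atf3* was chosen after its values were seen.

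Alternatives were a pseudocount of 0.1, no filter on low values, median-of-ratios scaling, a fit of all 35 mice, the mouse number as a covariate, the stricter limits of 0.001 (adjusted p) and 2 (size of the log2 fold change), and leaving out each mouse. A voom fit on recovered reads and a fit of only mice with less than 500 TPM of summed markers of tubule, endothelium and leukocytes were added after seeing the data. On simulated data for DMSO-treated H77L against control mice, 90 of 200 genes with a log2 change of 0.5 were recovered, with 4 false calls among 10812 genes, and 185 of 200 with a change of 1.0, with 15 false calls among 10794 genes. In the real comparison 2452 genes were called higher and 2455 lower, which makes the adjustment less strict. The simulated recovery therefore does not carry over to the knock-in comparisons.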

Additional observations from a re-analysis of the deposited data

Results flagged for a closer look

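Of the 60 combinations of 10 genes and 6 groups, 8 (13.3%) held a mouse whose gap to the nearest other mouse was too large a part of the range of its group by Dixon's criterion, and chance gives about 1 in 20.

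Of these 8, 4 were the same mouse, DMSO-treated H77L replicate 6, with *Hmox1* at 102 TPM, *Txnrd1* at 180 TPM, *Mt1* at 672 TPM and *Mt2* at 79.3 TPM. It was the highest of its group in 7 of the 10 genes, *Nfe2l2* included (165 TPM), and also in *Maff* (69.6 TPM, against 17.9 to 32.3 TPM in the other 5 mice) and in *Atf3* (5030 TPM, against 2062 to 3707 TPM), a stress-induced transcription factor. Its *Nfe2l1* value of 855 TPM was the lowest of its group. Its podocyte marker sum was 5610 TPM, against 7101 to 10017 TPM in the other H77L mice. The parietal cell marker sum was 248 TPM, against 106 to 133 TPM, and the leukocyte marker sum 28.5 TPM, against 1.07 to 13 TPM. The sum of immediate early and heat shock genes was 29207 TPM, against 37849 to 45515 TPM. The part of any of these in its *Mt1* and *Hmox1* values was not tested.

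A second mouse, bortezomib-treated control replicate 6, had *Txnrd1* at 225 TPM and was the highest of its group in 5 of the 10 genes. *Nfe2l2* had 161 TPM in this mouse, against 87.5 to 127 TPM in the other 5, *Maff* 231 TPM, against 6.31 to 11.8 TPM, and *Atf3* 9180 TPM, against 986 to 3571 TPM. Without it, the *Mt1* differences from bortezomib-treated control mice were 0.85 for H77L (adjusted p = 0.00126 from limma) and 1.33 for C118F (adjusted p = 3.0e-04).

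The remaining values were low ones. *Nqo1* had 14.9 TPM in DMSO-treated control replicate 4. In bortezomib-treated H77L mice, *Nfe2l1* had 876 TPM in replicate 4 and *Keap1* had 24.3 TPM in replicate 2.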

How the results depend on the processing

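The 12 called differences were refitted 224 times under the alternatives other than stricter limits and with single mice left out. Of these fits 154 kept the call and 0 reversed the direction. *Nfe2l1* in DMSO-treated H77L mice and in both bortezomib-treated lines, and *Nqo1* in bortezomib-treated C118F mice, were called at the adjusted p of 0.05 in every one of these fits. Of the 10 genes, 3 were called in DMSO-treated H77L mice, but 1 without a filter on low values, 1 with the mouse number as a covariate and 0 at the stricter limits of 0.001 (adjusted p) and 2 (size of the log2 fold change). For DMSO-treated C118F mice, 3 became 1, 0 and 0 under the same settings, and 1 with only mice low in markers of other cells. Without a filter none of the 3 genes called at first kept its call there, so that the remaining 1 was another gene. For bortezomib-treated H77L mice, 2 became 1 without a filter, 1 in the fit of all 35 mice, 0 at the strict cutoffs and 1 with only mice low in other markers, and for bortezomib-treated C118F mice 4 became 0 at the strict cutoffs. Counts can hide exchanged genes: with the mouse number as a covariate *Mt1* lost its call in both bortezomib-treated lines, while *Txnrd1* and *Nfe2l2* became called lower in H77L mice, and *Gclc* lost its call in C118F mice in the fit of all 35 mice and with only mice low in other markers. The strict cutoffs ask for a larger change than any of these genes had, and the cause of the other losses was not tested. Leaving out single mice, the counts ranged from 2 to 4, 0 to 3, 1 to 2 and 3 to 4 in these 4 comparisons, and were 0 throughout between treatments, between the lines and for the interactions. No paired analysis was possible because the labels give each mouse its own number and no number is shared between groups. Each group held only 5 or 6 mice, and *Mt2* rests on few reads. Log2 changes near 0.5 were often missed in the simulation, which changed far fewer genes than were called in the knock-in comparisons.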

Other observations

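In the knock-in lines, *Txnrd1* and *Nfe2l2* differed between bortezomib and DMSO by -0.29 and -0.01 on the log2 scale in H77L and -0.09 and 0.19 in C118F mice, none of them called by limma. Of the 32 proteasome subunit genes, which include targets of NRF1, 1 was called higher after bortezomib in H77L mice, and none was called in control or C118F mice. Of all genes, 1.16% were called in H77L mice and 0% in control and in C118F mice. The list median was 0.18 in H77L mice beside 0.00 for all genes, and -0.01 and 0.01 in control and C118F mice beside 0.01 and 0.06. Positive signs were found for 29 of the 32 genes in H77L, 15 in control and 17 in C118F mice. *Slc39a10*, the zinc importer that was higher in both DMSO-treated lines, had differences of -0.14 in H77L and 0.30 in C118F mice from the bortezomib-treated controls, neither of them called (adjusted p = 0.595 and 0.269). Between bortezomib and DMSO, it was called lower in H77L mice (log2 -0.64, adjusted p = 0.0298). It was not called in C118F mice (-0.08, adjusted p = 0.943) or in control mice (0.62, adjusted p = 0.56), whose mean went from 13.8 to 21.4 TPM.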
